A study of Caenorhabditis elegans with 6 samples.

Results

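The 10 genes described here encode secreted proteins of the nematode precuticle, the temporary matrix that covers epithelia before a cuticle forms, or proteins needed to shed the old cuticle at a molt. They are noah-1, noah-2, fbn-1, let-653, dex-1, sym-1, lpr-1, lpr-3, mlt-10 and mlt-11, taken by their gene symbol in the platform annotation. All 10 were found, with 19 probe sets that carry a single gene name, out of 17118 genes and 20766 such probe sets on the array. The brightest probe set of a gene, by its mean over 6 arrays, gives the main value. RNA was measured on Affymetrix C. elegans arrays in whole first-stage (L1) larvae of Caenorhabditis elegans, 2 arrays for each of 3 groups. The elo-5 C13ISO group held elo-5(gk208) mutants whose parents were raised on 1 mM C13ISO, and the labels describe these larvae as lacking C17ISO. The elo-5 C17ISO group held the same mutants from parents raised on 1 mM C17ISO, and the N2 C13ISO group held wild-type N2 larvae from parents raised on 1 mM C13ISO. Every group shared a preceding generation on OP50 bacteria with 1 mM C17ISO in DMSO, growth at 20 °C, bleaching of gravid adults, hatching without food, and collection after 24 h. C13ISO and C17ISO are iso-branched saturated fatty acids, C17ISO being the longer. The gene elo-5 encodes an elongase that worms need to make C17ISO, so the mutants depend on what they are fed. The larvae of an array were collected in bulk, so fewer cells of a type and less RNA per cell cannot be told apart. No group of N2 larvae on C17ISO was analysed here.

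In the embryo and again before each molt, epidermal cells and the cells lining narrow tubes first secrete a precuticle. It shapes and protects the surface, and the collagen cuticle is laid down beneath or within it. Zona pellucida (ZP) domain proteins such as NOAH-1, NOAH-2, FBN-1 and LET-653 can assemble into filaments or gels, lipocalins such as LPR-1 and LPR-3 have a fold that in other family members carries lipids, and leucine-rich repeat proteins such as SYM-1 are a further class of the matrix. At the molt, proteases loosen the old cuticle and inhibitors such as MLT-11 hold proteases in check. Many of these genes are transcribed in pulses, once per larval stage.

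The deposited values are intensities on a linear scale, with array medians of 107 to 134. Spearman correlations were 0.984 to 0.989 between arrays of a group and 0.926 to 0.982 between arrays of different groups. Array number, 2 per group, limits the precision. The elo-5 probe set read 217 and 144 in elo-5 C13ISO, 146 and 178 in elo-5 C17ISO, and 1169.7 and 1608 in N2. This was a 7.18-fold lower reading in elo-5 C13ISO and a 7.82-fold lower one in elo-5 C17ISO than in N2 (limma adjusted p = 5.0e-06 and 2.0e-04). The sources used here do not say whether it lies within the gk208 deletion, and one outside would not check the labels. All differences below are on the log2(intensity + 16) scale, with a standard error (SE) from a limma fit of all 6 arrays. Adjusted p-values come from that fit, by the Benjamini-Hochberg method over the 15783 probe sets tested. "Fell" and "rose" are used for an adjusted p under 0.05.

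Between the mutant groups the genotype was shared and the fatty acid fed to the parents differed. In elo-5 C13ISO larvae, 9 of the 10 genes fell and fbn-1 was not called, whereas 18.8% of all probe sets tested were called lower. The fall was at least 2-fold for 8 genes, which held for 7.53% of all probe sets tested. The median log2 difference of the 10 genes was -2.10, and that of all probe sets tested was 0.069. The differences ran from 9.25-fold lower for sym-1 to 1.61-fold lower for dex-1 among the genes called. For all 10 genes both elo-5 C13ISO arrays read below both elo-5 C17ISO arrays, an arrangement found at 31.3% of the probe sets tested.

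Against N2 C13ISO the supplement was shared and the genotype differed. This comparison uses the same elo-5 C13ISO arrays, so its values are not independent of those above. Here too 9 of the 10 genes fell and fbn-1 was not called, against 20.5% of all probe sets called lower. For 8 genes the fall was at least 2-fold, against 8.11% of all probe sets. The median log2 difference of the 10 genes was -1.86, and that of all probe sets tested was 0.023. The largest difference was that of mlt-10, 9.96-fold lower, and the smallest called was that of dex-1, 1.64-fold lower. Every gene except fbn-1 had both elo-5 C13ISO arrays below both N2 arrays, and 34.8% of all probe sets were arranged this way. All 10 brightest probe sets passed the filter on low values, and even their lowest reading, 60.0 for lpr-1 in elo-5 C13ISO, lay above the filter's intensity of 31.2.

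**Figure D1:**
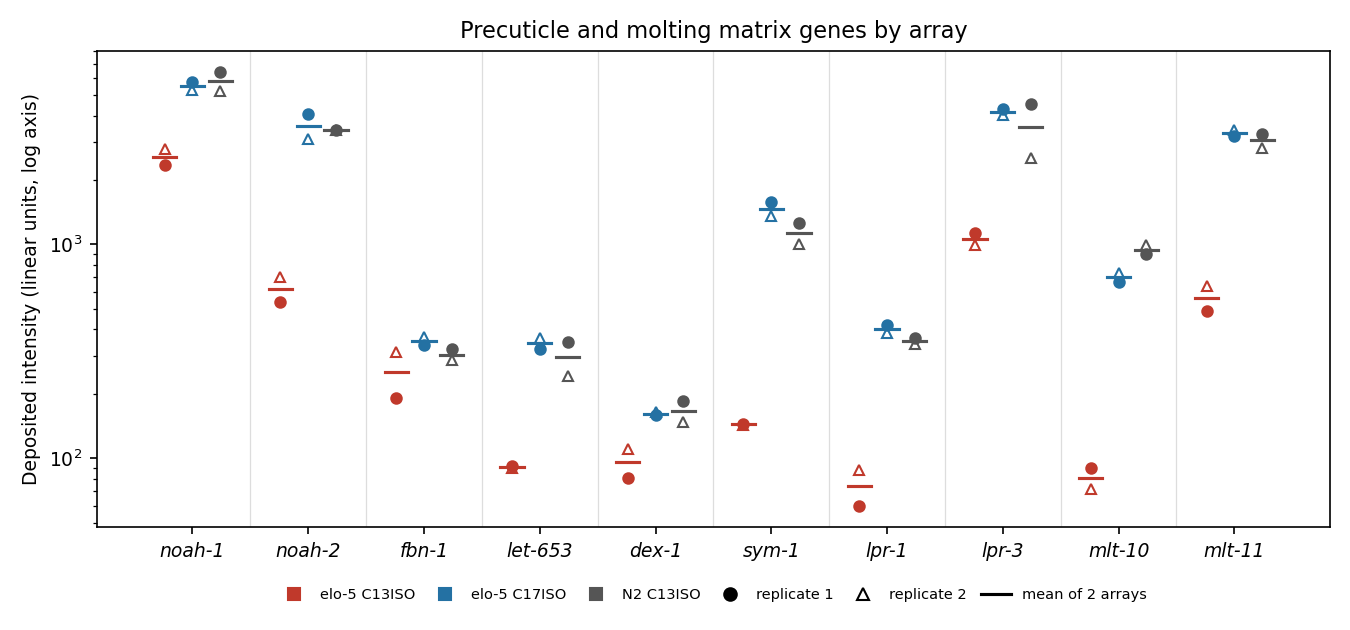
Deposited intensity (log axis) of the brightest probe set of each gene on each array, with elo-5 C13ISO in red, elo-5 C17ISO in blue and N2 C13ISO in grey, replicate 1 as filled circles, replicate 2 as open triangles and bars at the mean of 2 arrays. Both elo-5 C13ISO arrays lie below the other 4 arrays for 9 of 10 genes, and for fbn-1 the red and grey points overlap. The share of all probe sets below all 4 was not computed. Below elo-5 C17ISO alone it was 31.3%, and below N2 alone 34.8%.

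Among the ZP domain genes, noah-1 and noah-2 encode proteins of the embryonic sheath that takes up mechanical force as the embryo elongates, and both are needed later for molting. The brightest noah-1 probe set read 2340.3 and 2780.3 in elo-5 C13ISO, 5773 and 5271 in elo-5 C17ISO, and 6373 and 5209.8 in N2. The elo-5 C13ISO arrays were the lowest, and the elo-5 C17ISO and N2 arrays overlapped. The fall was 2.16-fold against elo-5 C17ISO (log2 -1.11, SE 0.12, adjusted p = 4.6e-05) and 2.25-fold against N2 (log2 -1.17, SE 0.12, adjusted p = 2.9e-05).

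The noah-2 probe set read 537 and 701 in elo-5 C13ISO, 4058 and 3098 in elo-5 C17ISO, and 3409 and 3412 in N2. Readings in elo-5 C13ISO were several-fold below those of the other groups, which again overlapped. The fall of noah-2 was 5.66-fold against elo-5 C17ISO (log2 -2.50, SE 0.16, adjusted p = 1.2e-06) and 5.45-fold against N2 (log2 -2.45, SE 0.16, adjusted p = 1.3e-06). Only 1.67% of the probe sets tested had a lower log2 difference than noah-2 against elo-5 C17ISO.

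The gene let-653 encodes a ZP protein of the luminal matrix that keeps the narrow excretory duct open. It read 91.4 and 90.3 in elo-5 C13ISO, 326 and 365 in elo-5 C17ISO, and 349 and 244 in N2. Its elo-5 C13ISO arrays differed by about 1 unit and lay well below the others. It fell 3.38-fold against elo-5 C17ISO (log2 -1.76, SE 0.19, adjusted p = 5.1e-05) and 2.88-fold against N2 (log2 -1.53, SE 0.19, adjusted p = 1.2e-04).

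The exception was fbn-1, which encodes a fibrillin-like ZP protein needed in the embryonic epidermis and for molting. Its brightest probe set read 191 and 314 in elo-5 C13ISO, 338 and 368 in elo-5 C17ISO, and 323 and 287 in N2. The elo-5 C13ISO arrays differed from each other more than the other groups did, and the second lay among the N2 values. The log2 difference was -0.49 against elo-5 C17ISO, with a 95% interval of -0.98 to -0.014 and an adjusted p of 0.0877. Against N2 it was -0.29, with an interval of -0.77 to 0.19 and an adjusted p of 0.304. Without elo-5 C13ISO replicate 1 the difference against elo-5 C17ISO was -0.16 and that against N2 was 0.042, and without replicate 2 the gene was called lower in both (log2 -0.83 and -0.63, adjusted p = 0.00514 and 0.0194).

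Lipocalins of the precuticle include lpr-1, needed to keep the excretory duct and pore joined, and lpr-3, needed for the cuticle barrier and for molting. The lpr-1 probe set read 60.0 and 88.5 in elo-5 C13ISO, 421 and 383 in elo-5 C17ISO, and 367 and 342 in N2. Both elo-5 C13ISO arrays were far below the rest, and both elo-5 C17ISO arrays were slightly above both N2 arrays. It fell 4.69-fold against elo-5 C17ISO (log2 -2.23, SE 0.19, adjusted p = 8.9e-06) and 4.16-fold against N2 (log2 -2.06, SE 0.19, adjusted p = 1.4e-05).

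The brightest lpr-3 probe set read 1124 and 993 in elo-5 C13ISO, 4315 and 4042 in elo-5 C17ISO, and 4546 and 2545 in N2. The N2 arrays differed from each other by more than 1.5-fold, and the lower of them was still above both elo-5 C13ISO arrays. The fall of lpr-3 was 3.91-fold against elo-5 C17ISO (log2 -1.97, SE 0.21, adjusted p = 4.9e-05) and 3.19-fold against N2 (log2 -1.67, SE 0.21, adjusted p = 1.3e-04).

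SYM-1 is a secreted leucine-rich repeat protein of the epidermal surface. Its loss is tolerated alone and harmful together with loss of related matrix proteins. The sym-1 probe set read 145 and 143 in elo-5 C13ISO, 1571 and 1364 in elo-5 C17ISO, and 1258 and 1002 in N2. The elo-5 C13ISO arrays were nearly equal, and the groups formed 3 steps without overlap, with elo-5 C17ISO highest. This was the largest fall among the 10 genes against elo-5 C17ISO, at 9.25-fold (log2 -3.21, SE 0.16, adjusted p = 2.6e-07), and 97 of the 15783 probe sets had a lower log2 difference. Against N2 it was 7.12-fold (log2 -2.83, SE 0.16, adjusted p = 5.0e-07).

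DEX-1 acts with the ZP protein DYF-7 to anchor sensory dendrite tips in the embryo and is a matrix component of the seam epidermis. Its brightest probe set read 80.6 and 110.5 in elo-5 C13ISO, 159.8 and 164 in elo-5 C17ISO, and 184 and 147 in N2. The elo-5 C13ISO arrays were the lowest, by a smaller margin than for the other called genes. It fell 1.61-fold against elo-5 C17ISO (log2 -0.69, SE 0.20, adjusted p = 0.0161) and 1.64-fold against N2 (log2 -0.71, SE 0.20, adjusted p = 0.0138). These calls were lost in some fits with an array left out. Without elo-5 C17ISO replicate 1 or 2 the log2 difference against elo-5 C17ISO stayed near -0.69 (-0.70 and -0.67), and its SE rose from 0.20 to 0.26. Without elo-5 C13ISO replicate 1 that difference moved to -0.49. Against elo-5 C17ISO the adjusted p was 0.0761 without elo-5 C13ISO replicate 1, 0.0688 without elo-5 C17ISO replicate 1 and 0.0815 without elo-5 C17ISO replicate 2. Against N2 it was 0.0636 without elo-5 C13ISO replicate 1 and 0.119 without N2 replicate 1.

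The remaining genes are named for the molting defect that follows their loss. MLT-10 is a secreted proline-rich protein made in the epidermis in pulses with the molts, and a standard reporter of molting. The mlt-10 probe set read 89.9 and 71.8 in elo-5 C13ISO, 665 and 738 in elo-5 C17ISO, and 899 and 992 in N2. The groups did not overlap, and here N2 was the highest. It fell 7.43-fold against elo-5 C17ISO (log2 -2.89, SE 0.16, adjusted p = 5.4e-07) and 9.96-fold against N2 (log2 -3.32, SE 0.16, adjusted p = 2.5e-07), where 75 of 15783 probe sets had a lower log2 difference.

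MLT-11 is a secreted protein with many Kunitz-type protease inhibitor domains. Its brightest probe set read 486 and 637 in elo-5 C13ISO, 3228 and 3432 in elo-5 C17ISO, and 3296 and 2833 in N2. The elo-5 C13ISO arrays were the lowest and the other groups overlapped. It fell 5.84-fold against elo-5 C17ISO (log2 -2.55, SE 0.14, adjusted p = 5.7e-07) and 5.37-fold against N2 (log2 -2.42, SE 0.14, adjusted p = 7.1e-07).

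**Figure D2:**
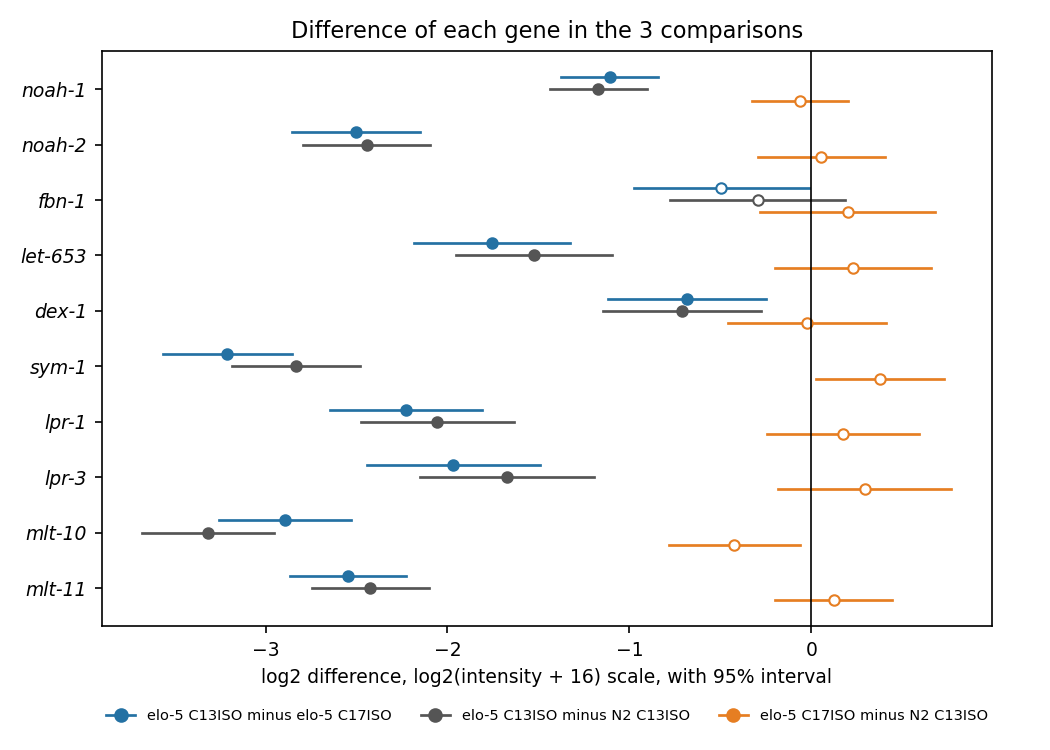
Log2 difference of each gene's brightest probe set with its 95% interval in the 3 comparisons, on the log2(intensity + 16) scale, with filled points for an adjusted p under 0.05 and open points otherwise. The blue and grey points of 9 genes lie between -3.32 and -0.69, and all 10 orange points, elo-5 C17ISO minus N2 C13ISO, are open.

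For 7 of the 10 genes the array carries more than 1 probe set, and these differed in the size of the change. Of the 19 probe sets, 18 passed the filter, and 16 of those were called lower in each of the comparisons with elo-5 C13ISO. The other noah-1 probe set (183775_at) read 715 and 854 in elo-5 C13ISO, 4632 and 4687 in elo-5 C17ISO, and 4883 and 3604 in N2. Its fall was 5.86-fold against elo-5 C17ISO (log2 interval -2.88 to -2.22), while the brightest gave 2.16-fold (interval -1.37 to -0.84), so the intervals did not overlap. The other fbn-1 probe set (181745_at) was dim and read 15 and 21.2 in elo-5 C13ISO, 92.9 and 83 in elo-5 C17ISO, and 65.3 and 55 in N2. It fell in both comparisons (3.06-fold, adjusted p = 1.1e-04, and 2.24-fold, adjusted p = 9.2e-04), unlike the brightest, so the fbn-1 result depends on which probe set is used. Its elo-5 C13ISO readings lay near the offset of 16, which understates such a fall. They also lay under the filter's intensity of 31.2, so this probe set passed only through the groups where it was high. It is counted among the 16 called lower.

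The second lpr-3 probe set (177650_at) fell 7.34-fold against elo-5 C17ISO and 7.40-fold against N2 (log2 -2.88 and -2.89), a larger change than the brightest showed. Another probe set of mlt-11 (194086_at) read 134 and 188 in elo-5 C13ISO, 2338 and 2289 in elo-5 C17ISO, and 2114 and 1626 in N2, and gave the largest fall of any probe set of the 10 genes. It was 13.3-fold against elo-5 C17ISO (log2 -3.74, SE 0.18, adjusted p = 2.3e-07) and 10.7-fold against N2, while the probe set 171847_s_at of mlt-11 gave 5.27-fold and 4.27-fold. The second mlt-10 probe set gave 8.30-fold and 9.79-fold, close to the first. The second dex-1 probe set gave 1.72-fold and 1.84-fold, with an elo-5 C13ISO pair of 53.7 and 116. Of the remaining probe sets, that of sym-1 (173273_at) read 18.5 to 44.2 with all groups overlapping, and that of mlt-11 (179352_at) read 4.58 to 13.7 and did not pass the filter. In Affymetrix naming, the ending _x_at marks probes that can also match other sequences, and the brightest probe sets of lpr-3 and mlt-11 carry it. The part of such cross-matching in these differences was not tested.

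**Figure D3:**
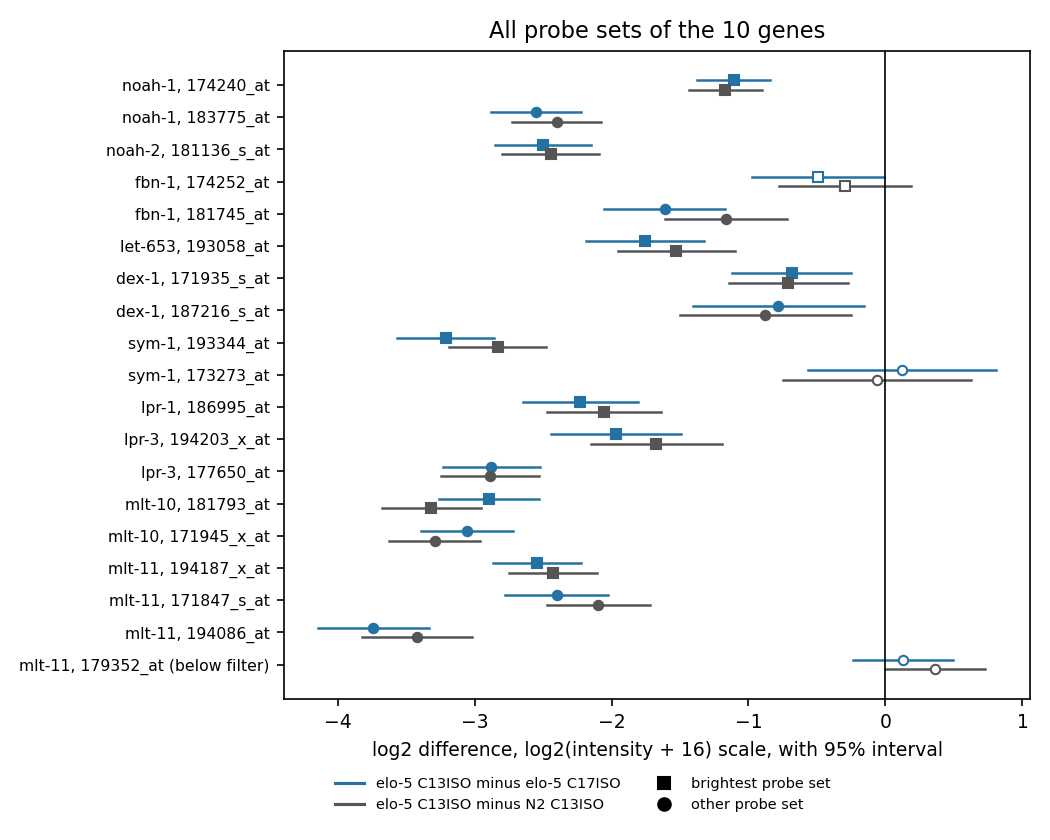
Log2 difference with its 95% interval for all 19 probe sets of the 10 genes, blue against elo-5 C17ISO and grey against N2, squares for the brightest probe set of a gene and circles for the others, filled where the adjusted p was under 0.05. Probe sets of noah-1, fbn-1, lpr-3 and mlt-11 give changes of different size, and the dim probe set of sym-1 lies near 0. That of mlt-11 below the filter lies at 0.13 against elo-5 C17ISO and 0.36 against N2, with open points.

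In elo-5 C17ISO larvae compared with N2 larvae, which differ in both genotype and supplement, none of the 10 genes was called by limma, against 1.41% of all probe sets tested. At an unadjusted p under 0.05 there were 2, sym-1 and mlt-10. The share of all probe sets at that unadjusted threshold was not computed, so this count has no background beside it. The log2 difference of sym-1 was 0.38 (interval 0.024 to 0.73, adjusted p = 0.284). That of mlt-10 was -0.42 (interval -0.78 to -0.06, adjusted p = 0.239), in the opposite direction. Over all 10 genes the 95% intervals spanned -0.78 to 0.77, so a difference as large as 2-fold, 1 on this scale, lay outside each of them. The median log2 difference of the 10 genes was 0.15, and that of all probe sets tested was -0.041. A p above the threshold does not show that the groups were equal.

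Related genes were grouped in lists by family or role. Among 5 further lipocalin-related genes, 4 fell and 0 rose against elo-5 C17ISO, and the same numbers held against N2. The gene lpr-5 fell most in the second comparison, reading 297 and 322 in elo-5 C13ISO, 3027 and 3162 in elo-5 C17ISO, and 2993 and 3005 in N2 (9.57-fold and 9.28-fold). The genes lpr-4, lpr-6 and lpr-7 fell 9.65-fold, 7.97-fold and 2.57-fold against elo-5 C17ISO. The median log2 difference of the 5 was -2.99 against elo-5 C17ISO and -2.74 against N2. Of the lipocalin genes on the array, lpr-2 had the log2 differences 0.35 and 0.32 and was not called.

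Extracellular leucine-rich repeat genes did not move one way. Of 16 that passed the filter, 6 fell and 5 rose in each comparison with elo-5 C13ISO, with medians of 0.097 and 0.039. The background share called higher was 26% against elo-5 C17ISO and 23.4% against N2. The gene let-4, whose protein acts in the matrix of the excretory duct and epidermis, read 147 and 229.8 in elo-5 C13ISO, 734 and 792 in elo-5 C17ISO, and 706 and 681 in N2 and fell 3.90-fold and 3.55-fold. The molting gene pan-1 fell 3.31-fold against elo-5 C17ISO, lron-11 2.77-fold and lron-8 2.16-fold. The gene egg-6, which acts with let-4 in the duct, read 469 and 1054 in elo-5 C13ISO, 378 and 328 in elo-5 C17ISO, and 358 and 344 in N2 and rose 1.96-fold and 1.96-fold, with its elo-5 C13ISO arrays more than 2-fold apart.

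Of 13 genes named for their relation to mlt-10, 10 were on the array and 4 passed the filter. Of those 4, 3 fell and 0 rose in each comparison with elo-5 C13ISO. A dim gene can pass only through a group where it is high, so these counts cover the measurable genes alone. The gene mltn-9 read 48.4 and 49.6 in elo-5 C13ISO, 649.7 and 573 in elo-5 C17ISO, and 503 and 499 in N2 and fell 9.63-fold and 7.94-fold. The genes mltn-12 and mltn-13 fell 2.14-fold and 1.81-fold against elo-5 C17ISO. Of these, mltn-13 read 17.5 and 16.8 in elo-5 C13ISO, 45.2 and 42.6 in elo-5 C17ISO, and 45 and 37.5 in N2. Its mean lay just above the filter's intensity and its elo-5 C13ISO readings below it, so it passed only through the groups where it was high. Without it, 2 of 3 fell.

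The ZP domain genes outside the 10, mostly cuticlins, were mixed. Of 29 that passed the filter, 8 fell and 6 rose against elo-5 C17ISO, and 8 fell and 4 rose against N2 (medians -0.19 and -0.27). The genes cutl-18, cut-4 and cutl-29 fell 6.52-fold, 4.62-fold and 3.04-fold against elo-5 C17ISO. The cuticlin gene cut-3 rose, reading 1009 and 1971 in elo-5 C13ISO, 325 and 313 in elo-5 C17ISO, and 158 and 137 in N2 (4.26-fold and 8.76-fold higher). The DEX-1 partner gene dyf-7, named after its values were seen, read 176 and 258 in elo-5 C13ISO, 414 and 437 in elo-5 C17ISO, and 266 and 256 in N2. It fell against elo-5 C17ISO (log2 -0.95, adjusted p = 0.00239) and was not called against N2 (log2 -0.27, adjusted p = 0.277).

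**Figure D4:**
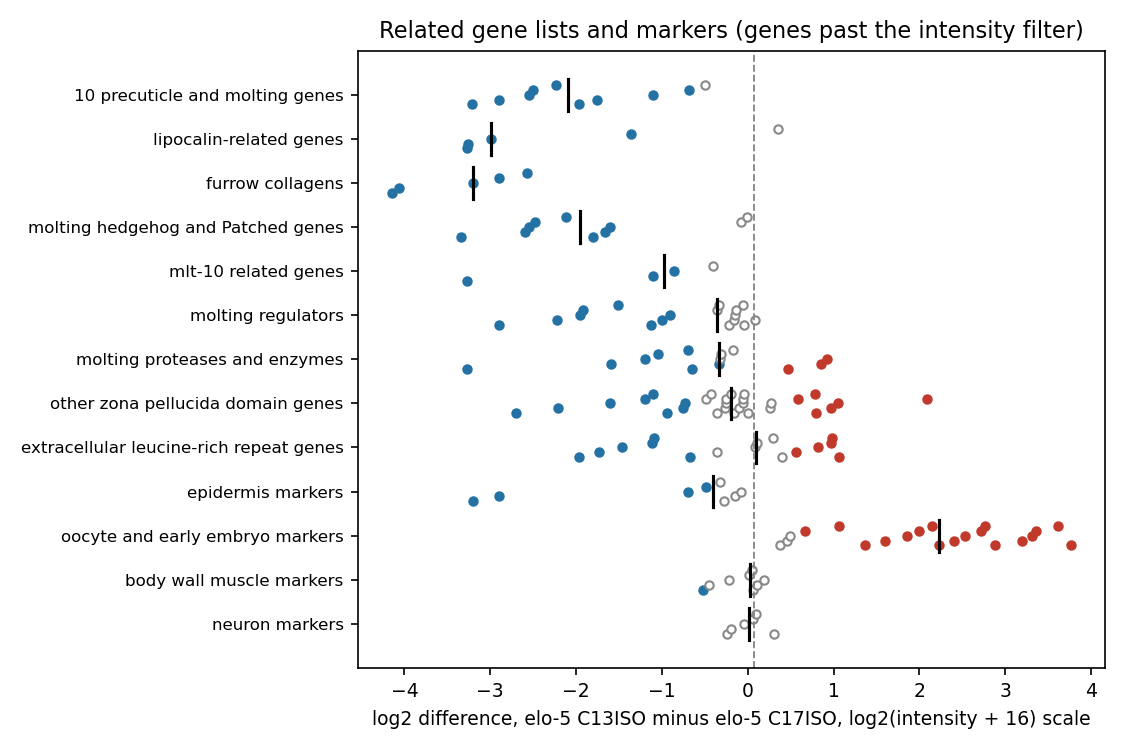
Log2 difference of elo-5 C13ISO minus elo-5 C17ISO for the 10 genes, related gene lists and markers, 1 point per gene past the filter, blue for called lower, red for called higher and open grey for not called, with a bar at each list's median and a dashed line at the median of all probe sets tested, 0.069. The 10 genes, the lipocalin-related genes and the furrow collagens lie to the left, and the oocyte and early embryo markers lie to the right.

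Genes that control or carry out the molt were examined beside the 10. Of 17 molting regulators past the filter, 8 fell and 0 rose against elo-5 C17ISO, and 11 fell and 0 rose against N2, with medians of -0.36 and -0.68. The nuclear hormone receptor gene nhr-23, required for each molt, read 368 and 579.6 in elo-5 C13ISO, 1406 and 1284 in elo-5 C17ISO, and 1103 and 1163 in N2 and fell 2.84-fold and 2.40-fold (log2 -1.51, SE 0.19, adjusted p = 1.4e-04 in the first). The zinc finger gene bed-3, also needed for molting, read 111 and 135 in elo-5 C13ISO, 978 and 1054 in elo-5 C17ISO, and 1126 and 1239.9 in N2 and fell 7.46-fold and 8.66-fold. The Period-like timing gene lin-42 fell 4.67-fold and 6.69-fold, the Blimp1-like gene blmp-1 3.77-fold and 4.56-fold, and the myelin regulatory factor-like gene myrf-1 3.86-fold and 3.43-fold.

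Not every regulator showed a difference of that size. The receptor gene nhr-25 read 948 and 1087 in elo-5 C13ISO, 1445 and 882 in elo-5 C17ISO, and 1608 and 1472 in N2, with the elo-5 C17ISO pair enclosing the elo-5 C13ISO pair. Its log2 difference was -0.15 against elo-5 C17ISO (interval -0.60 to 0.30, adjusted p = 0.576), and it fell against N2 (log2 -0.59, adjusted p = 0.037). The Grainyhead gene grh-1 read at most 7.45 on any array and did not pass the filter.

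Of 13 molting proteases, protease inhibitors and cross-linking enzymes past the filter, 7 fell and 3 rose against elo-5 C17ISO, and 8 fell and 1 rose against N2. The metalloprotease genes nas-37 and nas-36, whose products help to release the old cuticle, fell 9.66-fold and 2.29-fold against elo-5 C17ISO. The nas-37 probe set read 21.1 and 24.9 in elo-5 C13ISO, 338 and 384 in elo-5 C17ISO, and 293 and 371 in N2, so elo-5 C13ISO lay near the offset of 16. The Kunitz inhibitor gene bli-5 read 19 and 24.9 in elo-5 C13ISO, 80.8 and 119.7 in elo-5 C17ISO, and 66.7 and 87 in N2 and fell 3.03-fold and 2.44-fold, and nas-7 fell 2.06-fold and 3.32-fold. The means of nas-37, bli-5 and the leucine-rich repeat gene lron-11 in elo-5 C13ISO lay under the filter's intensity, so they passed through the other groups. Hedgehog-related and Patched-related genes with a part in molting or apical secretion fell in 8 of 10 cases against elo-5 C17ISO and 9 of 10 against N2, with 0 higher and medians of -1.96 and -2.01. Among them qua-1, a hedgehog-related gene needed for molting, read 197 and 173 in elo-5 C13ISO, 2179 and 1879 in elo-5 C17ISO, and 2085 and 1726 in N2 and fell 10.2-fold and 9.53-fold. The Patched-related genes ptr-18 and ptr-4 and the Dispatched-like gene che-14 fell 6.05-fold, 5.86-fold and 5.57-fold against elo-5 C17ISO.

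**Figure D5:**
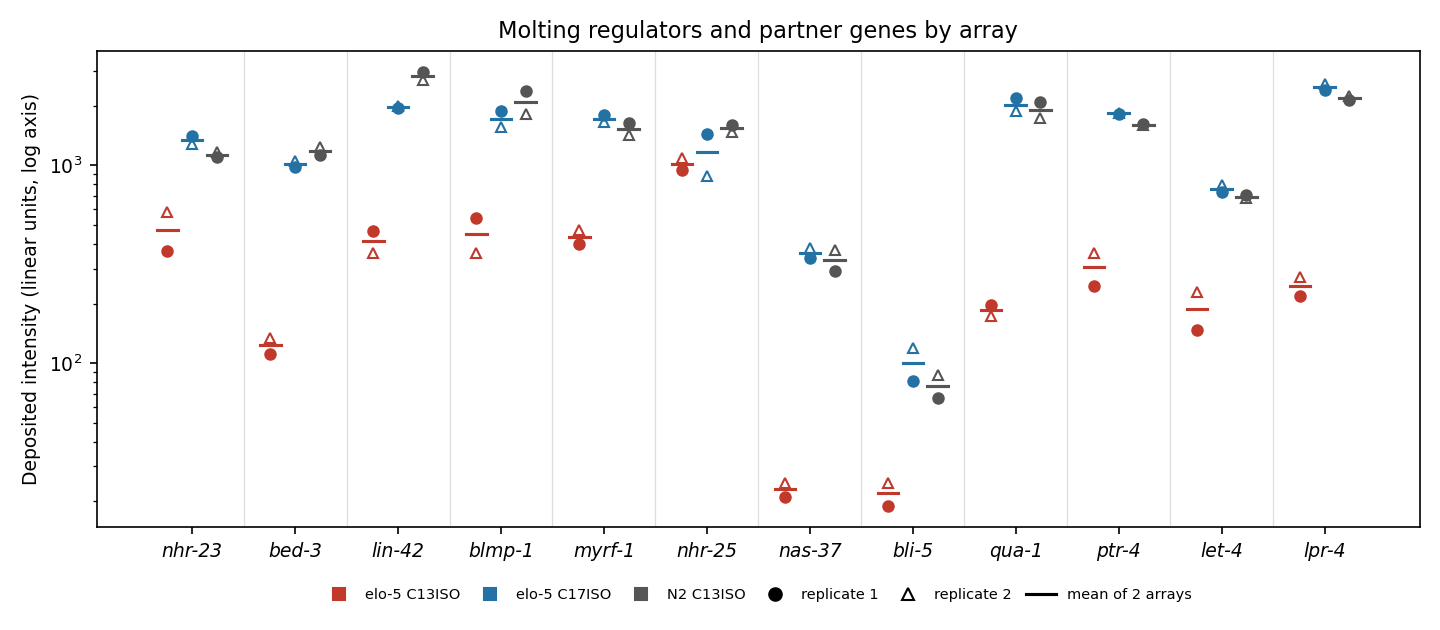
Deposited intensity (log axis) of molting regulators and partner genes of the precuticle on each array, with the colours, symbols and mean bars of the plot of the 10 genes by array. The 12 genes include nhr-23, bed-3, nas-37 and qua-1, whose elo-5 C13ISO arrays lie below the other 4, and nhr-25, whose elo-5 C13ISO arrays lie within the elo-5 C17ISO pair.

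Markers of cell types were read on the same arrays. The labels name whole worms, and markers of epidermis, intestine, muscle and neurons were all measurable. Of 8 epidermis markers, 4 fell and 0 rose against elo-5 C17ISO, and 5 fell and 0 rose against N2. Their summed intensity was 4951 and 5832 in elo-5 C13ISO, 11923 to 12797 in elo-5 C17ISO and 11683 to 12105 in N2. The falls were uneven. The surface genes wrt-2 and dpy-7 had log2 differences of -3.21 and -2.90 against elo-5 C17ISO and of -3.10 and -2.46 against N2. The other 6 markers are epidermal transcription factor genes. Of these, elt-1 and elt-6 fell against elo-5 C17ISO (log2 -0.70 and -0.49), and elt-3, lin-26, nhr-25 and egl-18 were not called (-0.33, -0.28, -0.15 and -0.076). Against N2, elt-1, lin-26 and nhr-25 fell (-0.89, -0.79 and -0.59), and elt-3, elt-6 and egl-18 were not called (-0.35, -0.11 and 0.20). All 5 furrow collagens on the array fell in both comparisons, led by dpy-9, dpy-8 and dpy-3 (17.7-fold, 16.7-fold and 9.22-fold against elo-5 C17ISO), with dpy-7 7.45-fold lower.

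Oocyte and early embryo markers moved the other way. Of 21 past the filter, 18 rose and 0 fell against elo-5 C17ISO, and 20 rose and 0 fell against N2. Of all probe sets tested, 26% and 23.4% were called higher. The elo-5 C17ISO means of puf-11 and chs-1, 12.5 and 9.09, lay under the filter's intensity of 31.2. These genes passed only through elo-5 C13ISO, where they were high. The marker perm-4 did not pass the filter and was not higher (log2 -0.18 and -0.078). Summed over 22 genes they read 11281 and 17431 in elo-5 C13ISO, 3875 and 2904 in elo-5 C17ISO and 4394 and 3667 in N2. Body wall muscle markers had 1 of 8 lower and 0 higher against elo-5 C17ISO and 2 lower and 1 higher against N2, with sums of 27138 to 30358 over all arrays. Of 6 neuron markers past the filter 0 were called by limma against elo-5 C17ISO, and 0 had an unadjusted p under 0.05, while against N2 1 rose, egl-3 (log2 0.22, adjusted p = 0.0449). Among 8 intestine markers 4 rose and 2 fell against elo-5 C17ISO, and 2 rose and 2 fell against N2. Among 4 glia markers past the filter 1 rose and 2 fell in each comparison. The part of these shifts in the fall of the 10 genes was not tested.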

How the data were processed

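The authors computed 1 intensity per probe set and array with dChip, per the labels. Its version and how arrays were normalized against each other are not stated in the sources used here; that the scale is linear was inferred from the range of the values. The deposited table holds 22548 probe sets. The platform annotation gave a single gene to 20766 of them, several genes to 887 and no gene to 895. Symbols of 20701 were updated by Entrez ID from the WBcel235 RefSeq gene table. Values were transformed as log2(intensity + 16), which understates changes of dim probe sets. The 15783 probe sets with a mean above the 30th percentile entered 1 limma fit of all 6 arrays, with an intensity trend, 3 residual and 6.98 prior degrees of freedom, two-sided p-values and a threshold of 0.05. Fold changes are 2 to the power of the log2 difference. The fit was tested on simulated data. Software was R 4.3.3, limma 3.58.1, Python 3.11.15, pandas 2.3.3 and matplotlib 3.10.9.

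The members, the lists and the tests were chosen with earlier results of these data known. In each related list the text names up to 4 genes with the largest called differences against elo-5 C17ISO and up to 3 called in elo-5 C17ISO minus N2 C13ISO. The genes nhr-23, nhr-25, let-4, egg-6, grh-1, blmp-1, bli-5, nas-37 and elo-5 were named whatever their values, and the cell type markers named singly were chosen after their values were seen. The ZP domain genes ram-5 and cutl-10 were named because they passed the filter only through groups where they were high. The same limit held for lron-4, which rose, and nhr-41, which fell against N2. Their means of 30.0 in N2 (lron-4) and 29.0 in elo-5 C13ISO (nhr-41) lay under the filter's intensity. The series design calls the arrays of a group biological replicates. Alternatives were other offsets, filters and normalizations, other settings of limma, a replicate block, the mean over a gene's probe sets, and leaving out each array.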

Additional observations from a re-analysis of the deposited data

How the results depend on the processing

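Of the 10 genes, 8 to 10 were called lower in elo-5 C13ISO against either control under all alternatives run, and 0 higher. The background moved as well. Of 15783 probe sets, those called lower against elo-5 C17ISO numbered 2974 in the main fit, 3505 under quantile normalization and 4990 with medians aligned. The genes that crossed the threshold were fbn-1 and dex-1. Against elo-5 C17ISO, fbn-1 was also called lower under quantile normalization (log2 -0.61, adjusted p = 0.0452), with array medians aligned (-0.74, adjusted p = 0.0167) and by the mean of its probe sets (-1.05, adjusted p = 0.00163). Against N2 the mean of its probe sets was called lower (-0.73, adjusted p = 0.013), and leaving out arrays gave log2 differences of -0.63 to 0.042. Averaging probe sets moved sym-1 to -1.54 and noah-1 to -1.83 against elo-5 C17ISO. Between elo-5 C17ISO and N2 none of the 10 was called under any alternative, and signs near 0 turned. With medians aligned noah-1 was at 0.017 and dex-1 at 0.048, dex-1 was at 0.030 under quantile normalization, and noah-1 was at 0.044 by the mean of its probe sets. With single arrays left out, the ranges were -0.21 to 0.082 for noah-1, -0.14 to 0.25 for noah-2, -0.17 to 0.12 for dex-1, -0.016 to 0.47 for let-653 and -0.12 to 0.71 for lpr-3. The cause of these shifts was not tested. Over all probe sets, 223 were called in that comparison, 103 with no filter, 371 with medians aligned, 86 without a trend, 542 with only the arrays compared, and 27 to 524 with an array left out. With medians aligned the percentage higher among called probe sets went from 58% to 35.7% against elo-5 C17ISO, from 53.4% to 38% against N2 and from 53.8% to 69.3% between the controls, and the median of all probe sets against elo-5 C17ISO went from 0.069 to -0.17. Same-numbered replicates deviated with correlations of 0.0011 to 0.083, so the numbers were not taken as pairs, and with a replicate block 9, 9 and 0 of the 10 genes were called. A group left with 1 array was assumed to vary like the others. Changes of dim probe sets are understated, and 18.3% to 20.9% of values per array lay below the offset of 16.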

Other observations

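Of 99 related genes tested in the fixed lists, 1 was called in elo-5 C17ISO minus N2 C13ISO. Of all probe sets tested, 1.41% were called, so this count lay near the background share. The gene was nas-6, an astacin metalloprotease gene known from the pharynx. It read 1171 and 1655 in elo-5 C13ISO, 610.2 and 865 in elo-5 C17ISO, and 154 and 225 in N2. The groups formed 3 steps without overlap, rising from N2 to elo-5 C17ISO and to elo-5 C13ISO. The log2 difference was 1.88 between elo-5 C17ISO and N2 (adjusted p = 0.00551) and 0.92 between elo-5 C13ISO and elo-5 C17ISO (adjusted p = 0.00942). The readings of cut-3 stood in the same order, with a log2 difference of 1.04 between elo-5 C17ISO and N2 that was not called (adjusted p = 0.0944). The 10 precuticle and molting genes had their lowest group mean in elo-5 C13ISO, although fbn-1 was not called against either other group. The share of all probe sets with their lowest mean in that group was not computed.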
